A study of Homo sapiens with 24 samples.

Results

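The MYC and MXD network is described here by 9 genes taken by symbol, namely MYC, MAX, MXD1, MXD3, MXD4, MXI1, MNT, MGA and MLX. All 9 are among the 19702 genes of the deposited count table, and all 9 were tested in each of the 16 comparisons made. RNA was sequenced from PC9 and H1975, human lung adenocarcinoma cell lines that carry activating EGFR mutations, after 24 h of treatment. There were 8 groups of 3 libraries. In each line a control group was set beside almonertinib alone, paclitaxel alone and both drugs together. PC9 cells received almonertinib at 2 nM or paclitaxel at 0.3 nM, and H1975 cells either drug at 1 nM. Almonertinib is an irreversible inhibitor of mutant EGFR, and paclitaxel stabilises microtubules and arrests dividing cells. The labels give no separate doses for the combination, the vehicle of the controls is not given in the sources used here, and each line stands for 1 tumour only. The doses of the single drugs differed between the lines, so a difference in response between lines is also a difference between doses.

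MYC is a transcription factor that binds DNA only as a dimer with MAX, at the E-box CACGTG, and raises the transcription of genes for ribosome production, nucleotide synthesis and cell growth. MXD1, MXI1, MXD3, MXD4 and MNT compete with MYC for MAX and bring the SIN3-HDAC corepressor to the same sites, and MGA carries MAX into the repressive PRC1.6 complex. MLX is a second hub that pairs with some MXD proteins and with the glucose-sensing factors MLXIP and MLXIPL. MYC RNA is short-lived and is a known target of signalling from EGFR through ERK, whereas MXD genes are known for rising as cells leave the cycle.

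Libraries held between 14232299 and 24245314 counts over genes, and 13780 to 14502 genes had at least 1 count. Levels are given as CPM, read counts relative to a library's total after scaling with trimmed-mean (TMM) factors, and changes as log2 fold changes with their standard errors (SE) from edgeR's quasi-likelihood test. A gene is said to have risen or fallen where the Benjamini-Hochberg adjusted p over all tested genes was under 0.05. Whether the 3 libraries of each group stem from separate cultures is not stated, so p-values measure only the spread between these libraries. The spread was larger in H1975 (biological coefficient of variation 0.191) than in PC9 (0.111). Libraries also differed in how gene counts followed the GC content of the transcript: the rank correlation of each library's deviation from its line's mean with GC ranged from -0.60 to 0.76. H1975 almonertinib 1 (0.76), H1975 control 3 (-0.60), H1975 paclitaxel 1 (-0.456) and PC9 almonertinib 3 (0.489) went against both other libraries of their group by the largest amounts. H1975 combination 3 (-0.173) and PC9 combination 2 (-0.0207) also did so in sign, at a smaller size, and are not among the 4 libraries left out below. The 3 PC9 paclitaxel libraries together lay at -0.521 ± 0.0972 (SD) against 0.241 ± 0.115 in PC9 controls. Their correlation with transcript length lay apart too, at 0.284 ± 0.0284 against -0.175 ± 0.0523. For many of the tested changes that these trends touch, values are given below with and without them. Both lines carried epithelial markers (EPCAM, CDH1, KRT8, KRT18 and KRT19 summed to at least 4283 CPM in every library). Leukocyte markers summed to at most 0.146 CPM, endothelial markers to at most 8.87 CPM and fibroblast markers to at most 23.1 CPM, with COL1A2 at 0 throughout.

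MYC RNA was lower after every treatment in PC9, and lowest after both drugs. The gene (ENSG00000136997) lies on the plus strand of chromosome 8 at 127735434 to 127741434 (GRCh38). It stood at 234, 179 and 201 CPM in the PC9 controls, at 106, 114 and 95.8 CPM under almonertinib, at 141, 124 and 130 CPM under paclitaxel and at 65.6, 69.4 and 71.2 CPM under the combination. No treated library reached the lowest control, and the 3 combination libraries lay below every single-drug library. MYC fell by 0.96 on the log2 scale under almonertinib (SE 0.10, adjusted p = 8.94e-07 by edgeR), to 0.516 of control. It fell by 0.65 under paclitaxel (SE 0.10, adjusted p = 8.00e-05) and by 1.58 under the combination (SE 0.10, adjusted p = 7.91e-09), the last to 0.335 of control. In bulk RNA, fewer cells that carry a transcript and less of it per cell cannot be told apart.

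No departure from adding the single-drug changes of MYC on the log2 scale was detected in PC9. Every interaction given here takes the doses of the combination to equal those of the single drugs, which the labels do not state. The interaction, which is the log2 change of the combination against almonertinib minus that of paclitaxel against control, was 0.03 (SE 0.14, interval of ± 2 SE from -0.26 to 0.32, adjusted p = 0.879 by edgeR). With the length and GC trend of each library removed it was -0.32 (adjusted p = 0.12), which lies outside that interval and was not called. Against almonertinib alone the combination was lower by a further 0.62 (log2 difference -0.62, SE 0.10, adjusted p = 0.000489), and against paclitaxel alone the log2 difference was -0.93 (SE 0.10, adjusted p = 3.54e-06). With the same trend removed, the 3 changes against control kept their calls, and the fall under almonertinib was the smallest of all alternatives at -0.70.

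**Figure D1:**
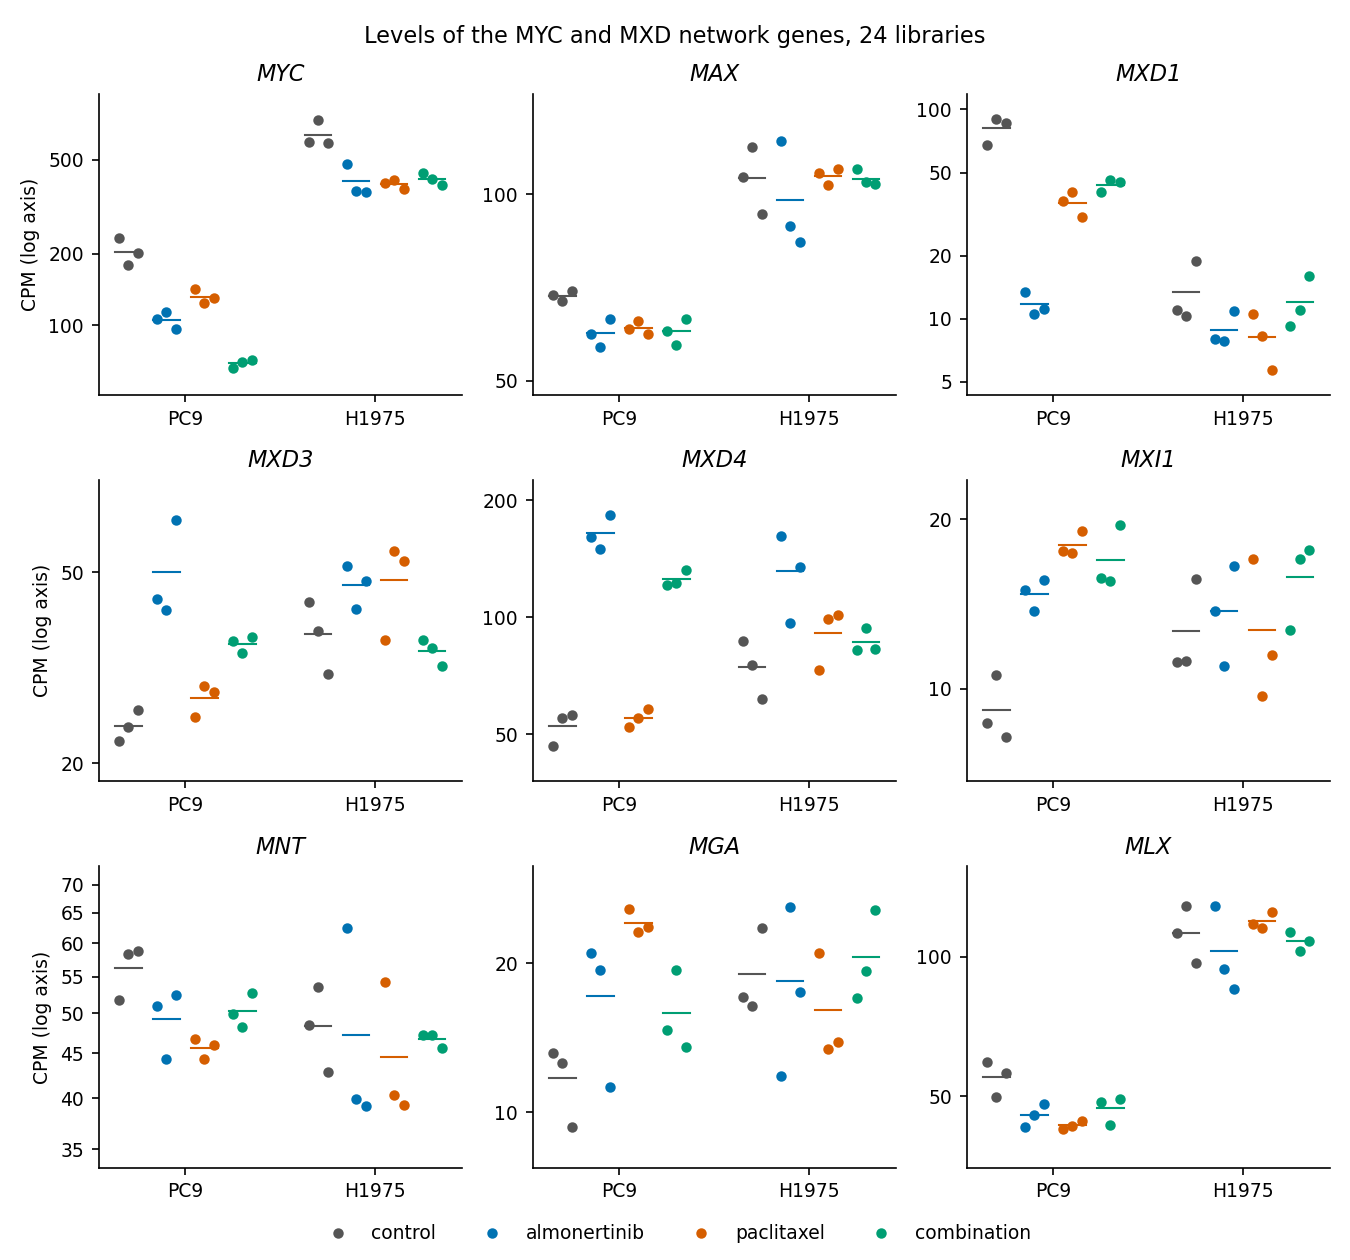
Level of each of the 9 genes in every library, as CPM on a log axis, with PC9 at the left and H1975 at the right of each panel; points are libraries and short lines are group means (n = 3). In PC9, MYC stepped down from 205 CPM in controls to 68.8 CPM under the combination, MXD1 fell to 11.7 CPM under almonertinib, and MXD4 rose to 164 CPM under almonertinib but stood at 55 CPM under paclitaxel.

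The MAX-binding repressors of the MXD family did not move as a block in PC9. Under almonertinib 8 of the 9 network genes were called, 4 higher and 4 lower, against 56.7% of all genes tested in that comparison (28.9% higher and 27.8% lower). With a background this high, the number called is not read as particular to the network. MXD1 fell while MXD3, MXD4 and MXI1 rose. MXD1 is the family member best known from terminal differentiation, MXD3 has been described in proliferating cells, MXD4 is the family member often found in resting cells, and MXI1 is known as a hypoxia-responsive member.

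MXD1 (ENSG00000059728, chromosome 2 at 69897688 to 69942945) showed the largest change of the 9 genes in either line. Its PC9 control libraries read 67.6, 90.3 and 86.2 CPM, against 13.5, 10.6 and 11.1 CPM under almonertinib, 36.5, 40.6 and 30.8 CPM under paclitaxel and 40.5, 46.0 and 44.9 CPM under the combination. All treated libraries lay below all controls and all almonertinib libraries below the rest, while the paclitaxel and combination ranges met at 40.5 to 40.6 CPM. MXD1 fell by 2.79 under almonertinib (SE 0.14, adjusted p = 9.59e-11 by edgeR), which is 6.91-fold. Its fall under paclitaxel was 2.29-fold (log2 change -1.20, SE 0.13, adjusted p = 2.28e-06) and under the combination 1.86-fold (log2 change -0.90, SE 0.12, adjusted p = 2.04e-05). MXD1 was therefore 3.71-fold higher under both drugs than under almonertinib alone (log2 difference 1.89, SE 0.13, adjusted p = 1.23e-07). The interaction of 3.09 (SE 0.18, adjusted p = 2.87e-09) was the largest among the 9 genes. If the combination used the single-drug doses, MXD1 lay 8.51-fold above the level at which the 2 single-drug changes add on the log2 scale. Alternative settings, which include removal of the length and GC trend, moved these values. Apart from single libraries left out, the paclitaxel change of MXD1 ran from -1.65 to -1.14 and its interaction from 3.03 to 3.60. Both were called in each setting. MXD1 shares 237 of its 6351 annotated exonic bases with SNRNP27 on the same strand; SNRNP27 changed by -0.40 (SE 0.13) under almonertinib in PC9.

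MXD4 (ENSG00000123933, chromosome 4 at 2247432 to 2262294, minus strand) rose wherever almonertinib was present in PC9. It read 46.5, 55 and 55.9 CPM in controls, 160, 150 and 183 CPM under almonertinib, 52.0, 54.9 and 58.1 CPM under paclitaxel and 121, 122 and 133 CPM under the combination. Every library with almonertinib lay at 121 CPM or above, and every library without it at 58.1 CPM or below. MXD4 rose 3.15-fold under almonertinib (log2 change 1.66, SE 0.10, adjusted p = 1.05e-09 by edgeR) and 2.38-fold under the combination (log2 change 1.25, SE 0.10, adjusted p = 5.11e-08). Under paclitaxel the log2 change was 0.05 with an interval from -0.15 to 0.24 (adjusted p = 0.697), which became 0.18 and was called (adjusted p = 0.0227) once the length and GC trend was removed. The combination fell short of almonertinib alone by 0.40 (log2 difference -0.40, SE 0.09, adjusted p = 0.0068), a difference that was not called with all 24 libraries in one fit (adjusted p = 0.15).

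MXD3 (ENSG00000213347, chromosome 5 at 177301461 to 177312757, minus strand) followed the pattern of MXD4 at a smaller size. Its 3 control libraries read 22.2, 23.8 and 25.8 CPM, the almonertinib libraries 44.0, 41.7 and 64.2 CPM, the paclitaxel libraries 25, 28.9 and 28.1 CPM and the combination libraries 36.0, 33.9 and 36.6 CPM. The library at 64.2 CPM is PC9 almonertinib 3, whose GC trend stood apart, and the other 2 almonertinib libraries still lay above every control. MXD3 rose 2.10-fold under almonertinib (log2 change 1.07, SE 0.14, adjusted p = 7.65e-06 by edgeR) and 1.48-fold under the combination (log2 change 0.56, SE 0.14, adjusted p = 0.00313), and its change under paclitaxel was 0.17 (SE 0.14, adjusted p = 0.313; 0.40 and called with the length and GC trend removed, adjusted p = 0.0016). MXD3 overlaps 2 other counted genes in exons, RAB24 on the same strand over 926 of 5154 bases and PRELID1 on the opposite strand over 1158 bases. Whether counting used strand is not given in the sources used here, so part of the count may belong to those genes. Under almonertinib in PC9 PRELID1 fell (log2 change -0.54, SE 0.11) and RAB24 changed by 0.20 (SE 0.26, adjusted p = 0.517 by edgeR). How much of the MXD3 count stems from these genes was not tested.

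MXI1 (ENSG00000119950, chromosome 10 at 110207605 to 110287365) rose under all 3 PC9 treatments. It read 8.68, 10.6 and 8.21 CPM in controls, 14.9, 13.7 and 15.6 CPM under almonertinib, 17.6, 17.4 and 19.0 CPM under paclitaxel and 15.7, 15.5 and 19.6 CPM under the combination. No treated library fell into the control range. The rises were 1.62-fold under almonertinib (log2 change 0.69, SE 0.14, adjusted p = 0.000367 by edgeR), 1.94-fold under paclitaxel (log2 change 0.96, SE 0.13, adjusted p = 3.57e-05) and 1.84-fold under the combination (log2 change 0.88, SE 0.13, adjusted p = 5.13e-05). Over the alternative settings other than single libraries left out, the paclitaxel change of MXI1 ran from 0.70 to 1.01 and was called in each. The combination was not higher than paclitaxel alone (log2 difference -0.08, interval from -0.33 to 0.18), and the interaction was -0.77 (SE 0.19, adjusted p = 0.00308), a call that was lost with the length and GC trend removed (-0.47, adjusted p = 0.0547).

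Because MXD1 moved against MXD3 and MXD4 in the same libraries, the bases before a RefSeq start of each are shown here. Windows of 250 bases before annotated RefSeq starts (GRCh38.p14) were read, 13 windows for 8 of the 9 genes. No window of MYC was read. Of each window only the stretch before any exon annotated in GENCODE is printed, 5′ to 3′ on the gene's strand. Other annotated transcripts start elsewhere: 68 bases of the MXD1 window, 5 of the MXD3 window and 185 of the MXD4 window lie in such exons, and the MXD1 window lies inside the outermost bounds of the gene given above. Capitals mark an exact match to a motif: the E-box CACGTG, which MYC, MXD and MNT dimers with MAX bind, or the AP-1 site TGAGTCA, read on both strands.
MXD1, chr2:69914859-69915040, plus strand: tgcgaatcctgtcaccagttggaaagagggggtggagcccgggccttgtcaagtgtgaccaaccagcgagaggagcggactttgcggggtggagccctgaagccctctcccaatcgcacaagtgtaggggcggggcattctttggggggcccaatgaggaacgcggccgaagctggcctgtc
MXD3, chr5:177312758-177313002, minus strand: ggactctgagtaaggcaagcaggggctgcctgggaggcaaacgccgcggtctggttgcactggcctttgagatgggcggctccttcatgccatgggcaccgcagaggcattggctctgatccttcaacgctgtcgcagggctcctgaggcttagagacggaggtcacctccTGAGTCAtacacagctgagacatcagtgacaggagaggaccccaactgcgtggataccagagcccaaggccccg
MXD4, chr4:2262295-2262359, minus strand: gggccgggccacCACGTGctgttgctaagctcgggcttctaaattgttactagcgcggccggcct

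The 3 windows differ in these matches. Counted back from the RefSeq start, which for MXD4 lies inside the outermost bounds of the gene, the MXD4 window holds CACGTG at 238 to 233 bases and the MXD3 window holds TGAGTCA at 79 to 73 bases, and the MXD1 window holds neither. Among all 35116 windows of this length, 6.34% hold CACGTG and 4.2% hold TGAGTCA. The E-box was also matched before MNT and MLX, that is in 3 of the 13 windows of the network. The FOXO site TGTTTAC, held by 2.98% of all windows, was matched in 1 of the 3 windows of MXI1, and the ETS site CCGGAAG, held by 8.52% of all windows, in 1 of the 2 windows of MAX. A match is a run of letters and says nothing on whether a factor binds there.

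MAX and MLX, the shared partners, changed little. MAX (ENSG00000125952, chromosome 14 at 65006174 to 65102695, minus strand) read 67.2 to 69.7 CPM in PC9 controls and 56.6 to 62.9 CPM over the 9 treated libraries. MAX was called lower under each treatment, with log2 changes of -0.19, -0.19 and -0.20 (SE 0.08 each, adjusted p = 0.0432, 0.044 and 0.0448 by edgeR). These calls rested on small differences: with the length and GC trend removed the change under almonertinib turned to 0.13 (adjusted p = 0.057), and those under paclitaxel (-0.04) and the combination (-0.05) were no longer called. Leaving out single libraries also lost most of these MAX calls. MLX (ENSG00000108788, chromosome 17 at 42567068 to 42573239) read 49.9 to 59.3 CPM in PC9 controls and 42.7 to 49.4 CPM in treated libraries. Its log2 changes were -0.27, -0.37 and -0.23 (SE 0.09 each, adjusted p = 0.0185, 0.00289 and 0.0415), and with the trend removed the almonertinib change turned to 0.05 (adjusted p = 0.58) and the combination change was not called. The combination call of MLX was also lost with most single libraries left out, and its almonertinib call without almonertinib 1, control 1 or control 3. The paclitaxel change of MLX was called in both, at -0.19 with the trend removed. MLX overlaps PSMC3IP on the opposite strand over 770 of its 4259 exonic bases, and PSMC3IP fell under almonertinib (log2 change -1.18, SE 0.18).

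MNT and MGA, the 2 larger MAX-binding repressors, split as well. MNT (ENSG00000070444, chromosome 17 at 2384060 to 2401118, minus strand) read 51.8, 58.4 and 58.8 CPM in PC9 controls and 46.7, 44.4 and 45.9 CPM under paclitaxel, where it fell by 0.32 (SE 0.09, adjusted p = 0.00662 by edgeR; adjusted p = 0.11 with all 24 libraries in one fit). Under almonertinib (-0.19, adjusted p = 0.0857) and the combination (-0.17, adjusted p = 0.129) MNT was not called, and both became called near -0.3 with the length and GC trend removed (-0.29 and -0.32). MGA (ENSG00000174197, chromosome 15 at 41621224 to 41773081) read 13.2, 12.6 and 9.35 CPM in controls, 20.9, 19.4 and 11.2 CPM under almonertinib, 25.7, 23.1 and 23.6 CPM under paclitaxel and 14.6, 19.4 and 13.5 CPM under the combination. Only the paclitaxel and combination libraries lay wholly above the controls, and the low almonertinib library is again PC9 almonertinib 3. MGA rose 2.02-fold under paclitaxel (log2 change 1.02, SE 0.20, adjusted p = 0.000585) and 1.47-fold under almonertinib (log2 change 0.55, SE 0.20, adjusted p = 0.0289), and under the combination the change was 0.43 (SE 0.20, adjusted p = 0.0917). The longest transcript of MGA has 14439 bases and a GC content of 42.0%, near the low end of the 9 genes, and MXI1 has 43.7%. With the trend removed the MGA changes shrank to 0.25 (almonertinib, not called), 0.42 (paclitaxel, called) and 0.11 (combination, not called). Without control 3, almonertinib 1 or almonertinib 2 of PC9 the almonertinib call of MGA was lost (log2 changes 0.41, 0.39 and 0.46).

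**Figure D2:**
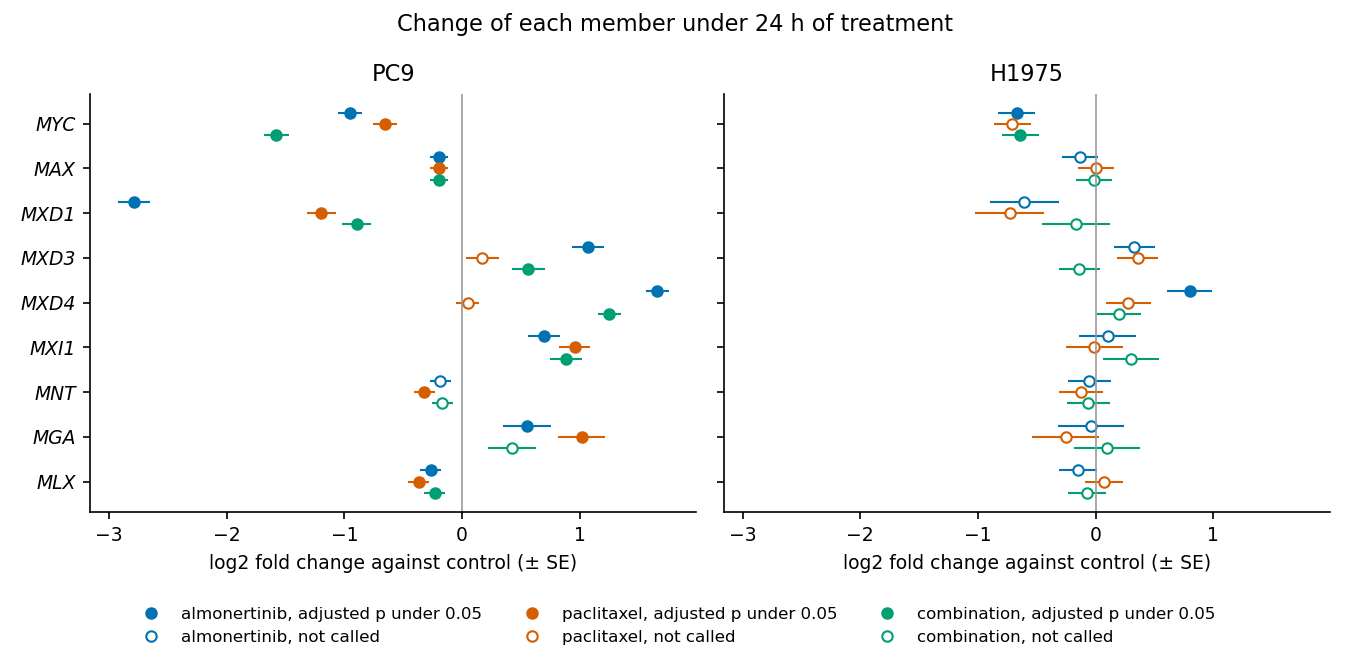
Log2 fold change of each of the 9 genes against control in PC9 (left) and H1975 (right), with bars of 1 SE; filled points passed an adjusted p of 0.05 in edgeR. PC9 points for MXD1 (-2.79) and MXD4 (1.66) under almonertinib lie farthest from 0, and in H1975 the filled points are MYC under almonertinib and the combination and MXD4 under almonertinib.

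Counted over the network, 7 genes were called under paclitaxel in PC9, 2 higher and 5 lower, against 55% of all genes (27% higher and 28% lower). Under the combination 7 were called, 3 higher and 4 lower, against 50.7% of all genes (24.7% higher and 26% lower). In both comparisons the background is high, and the counts are given as a description. Between the treatments, 4 genes differed between the combination and almonertinib alone (20.1% of all genes, 10.3% higher and 9.74% lower), MXD1 being higher under the combination and MYC, MXD3 and MXD4 lower. Another 4 differed between the combination and paclitaxel alone (44.1% of all genes, 21.7% higher and 22.4% lower): MXD4 (1.20, SE 0.10) and MXD3 (0.39, SE 0.14) were higher, and MYC and MGA (-0.59, SE 0.19) lower. With the length and GC trend removed the MXD3 and MGA differences were 0.25 and -0.31, both called. MXD1 was not called there (0.30, adjusted p = 0.061), but it was called with RLE factors, DESeq2, no filter, the replicate block, the 2 groups alone or the trend removed, the last at 0.59 (adjusted p = 0.0011). The MXD3 difference from almonertinib (-0.51) was lost without combination 1 or 2, with all 24 libraries in one fit or with the 2 groups alone, and was -0.28 without almonertinib 3. The MXD3 and MGA differences from paclitaxel were lost on leaving out single libraries, the omission of paclitaxel 1, combination 1 or combination 3 taking both, and that of paclitaxel 2 or 3 taking the MXD3 call. Interactions were called for 7 of the 9 genes (45.5% of all genes, 22.1% positive and 23.4% negative): positive for MXD1, MLX (0.40, SE 0.13) and MNT (0.34, SE 0.13), and negative for MGA (-1.14, SE 0.28), MXI1, MXD3 (-0.68, SE 0.19) and MXD4 (-0.45, SE 0.14). With the length and GC trend removed 4 interactions were called, those of MLX, MNT and MXI1 no longer being among them, and the MGA interaction was -0.55. The MNT interaction was also lost on leaving out most single libraries, and those of MXD4 (adjusted p = 0.13), MLX and MNT with all 24 libraries in one fit.

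Within single libraries, which needs no scaling between libraries, the balance of MYC to MXD transcripts differed between the PC9 groups. These ratios, and the shares of the MXD sum below, still carry each library's length and GC trend. They were not taken with that trend removed. The longest transcripts of MYC, MXD4 and MXD1 have GC contents of 53.9%, 64.0% and 42.7%. Counts were divided by the length of each gene's longest annotated transcript, and MYC was set against the sum of MXD1, MXD3, MXD4 and MXI1. In PC9 controls the ratio was 2.16 ± 0.529 (SD, n = 3), from 1.75 to 2.76. It was 0.658 ± 0.141 under almonertinib, 1.5 ± 0.166 under paclitaxel and 0.491 ± 0.0148 under the combination. Almonertinib and combination libraries lay wholly below 1, and paclitaxel libraries (1.36 to 1.69) wholly below the lowest control at 1.75. The almonertinib (0.506 to 0.786) and combination (0.482 to 0.508) ranges met, the lowest almonertinib library being PC9 almonertinib 3, which stood apart in GC trend. The ratio of MYC to MNT was also lowest under the combination, ranging from 7.74 ± 1.6 in controls to 6.10 ± 0.254 under paclitaxel, 4.56 ± 0.80 under almonertinib and 2.89 ± 0.138 under the combination, the controls (6.46 to 9.54) and paclitaxel libraries (5.92 to 6.39) lying side by side without overlap. In H1975 the ratio of MYC to the MXD sum was higher throughout: 6.68 ± 1.11 in controls (5.51 to 7.73), 2.95 ± 0.405 under almonertinib, 3.47 ± 0.591 under paclitaxel and 4.08 ± 0.336 under the combination (SD, n = 3). No treated H1975 library reached the control range, but unlike in PC9 the combination libraries (3.86 to 4.47) lay above the almonertinib libraries (2.53 to 3.34). Against MAX, its obligate partner, MYC stood at 3.97 ± 0.503 in PC9 controls and 1.53 ± 0.083 under the combination, and at 8.05 ± 0.533 in H1975 controls and 5.22 ± 0.16 under the combination. These ratios are descriptions, without a test, and a longest transcript may not be the one the cells use.

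The make-up of the MXD sum also changed. In PC9 controls MXD1 gave 35.7% ± 1.82 (SD, n = 3) of the per-length MXD total, MXD4 31.8% ± 0.406, MXD3 26% ± 1.57 and MXI1 6.51% ± 0.866. Under almonertinib MXD1 gave 3.09% ± 0.588 and MXD4 59.0% ± 2.22. Under paclitaxel the share of MXI1 was 14% ± 0.815 and that of MXD1 17.3% ± 2.33, while under the combination MXD4 gave 52.1% ± 0.203 and MXD1 13.2% ± 0.892. In H1975 MXD4 and MXD3 were the main transcripts in all 4 groups, with MXD1 at 2.76% to 6.06% of the total by group mean.

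**Figure D3:**
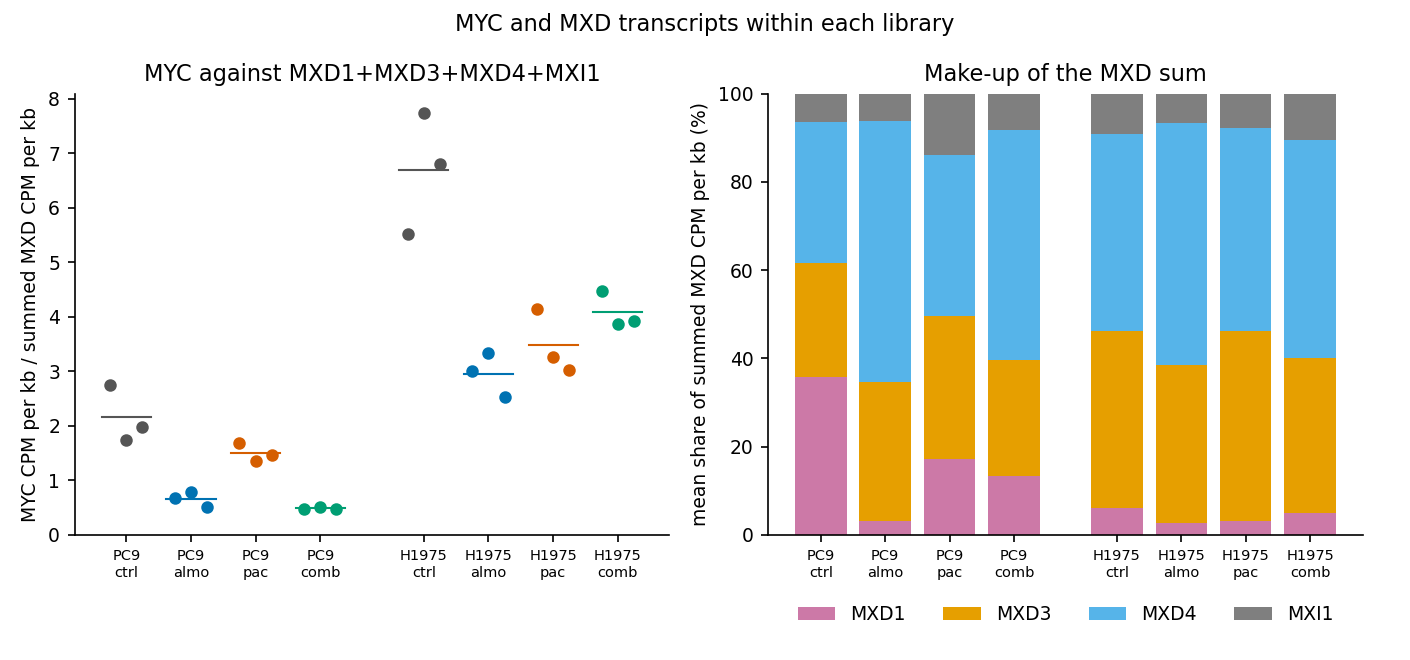
Left, ratio of MYC to the summed MXD1, MXD3, MXD4 and MXI1, each as CPM per kilobase, within each library (points) with group means (lines); right, mean share of each gene in that MXD sum, in percent. The mean ratio was 2.16 in PC9 controls and 0.491 under the combination, and 6.68 in H1975 controls against 2.95 to 4.08 under treatment, and the MXD1 share of 35.7% in PC9 controls was 3.09% under almonertinib.

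In H1975 the data resolved fewer changes, and MYC was the gene that moved most regularly. It read 595, 736 and 589 CPM in controls, 482, 370 and 365 CPM under almonertinib, 399, 409 and 375 CPM under paclitaxel and 440, 414 and 392 CPM under the combination. All 9 treated libraries lay below all 3 controls. Under almonertinib 2 of the 9 genes were called (1.95% of all genes, 1.35% higher and 0.599% lower), MYC lower and MXD4 higher. MYC fell by 0.67 (SE 0.16, adjusted p = 0.0404 by edgeR). Its change under paclitaxel was of the same size, -0.71 (SE 0.16), but the adjusted p of 0.0582 missed the threshold, so that 0 of 9 genes were called there (0.64% of all genes) and 2 had an unadjusted p under 0.05 (8.16% of all genes); DESeq2 called 1, MYC. Under the combination MYC alone was called (2.46% of all genes, 0.697% lower) and fell by 0.64 (SE 0.16, adjusted p = 0.0443). The labels do not say that the repeat numbers pair the samples. For the combination and control libraries, deviations of same-numbered libraries correlated at 0.110, 0.169 and 0.345. With the repeat number as a block, the MYC change of -0.64 under the combination was not called. The MYC calls also depended on single libraries: leaving out H1975 control 2, the highest control, gave -0.57 under almonertinib (adjusted p = 0.24) and -0.53 under the combination (adjusted p = 0.21), and leaving out other libraries of these groups also lost the calls at log2 changes between -0.72 and -0.61.

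MXD4 in H1975 read 86.6, 75.1 and 61.6 CPM in controls and 162, 96.8 and 134 CPM under almonertinib. The groups did not overlap, and MXD4 rose 1.74-fold (log2 change 0.80, SE 0.19, adjusted p = 0.0404 by edgeR). The library at 162 CPM is H1975 almonertinib 1, the one whose GC trend stood farthest apart. Under paclitaxel (0.28, SE 0.19) and the combination (0.20, SE 0.19) MXD4 was not called. Leaving out almonertinib 3 or any 1 control lost the almonertinib call of MXD4, at log2 changes from 0.69 to 0.92.

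The other 7 genes were not called in H1975 under any treatment. MXD1 was low in this line, with controls at 11.1, 10.4 and 18.8 CPM, and its log2 changes were -0.60 (SE 0.29) under almonertinib, -0.73 (SE 0.29) under paclitaxel and -0.17 (SE 0.29) under the combination. The intervals of ± 2 SE under almonertinib ran from -0.02 to 0.67 for MXD3 and from -0.38 to 0.59 for MXI1. They lie below the PC9 changes of the same genes (1.07 and 0.69). Smaller rises lie within them, so the depth and spread here do not show that these genes stayed the same. The difference between lines was called for MXD3 (0.72) and not for MXI1 (0.57, adjusted p = 0.166 by edgeR). No gene of the 9 differed between the combination and either single drug (0% of all genes in both comparisons). At an unadjusted p under 0.05 there were 2 against almonertinib (9.96% of all genes) and 1 against paclitaxel (13.8% of all genes), and DESeq2 called 0 in each. No interaction was called by edgeR (0.672% of all genes), 4 had an unadjusted p under 0.05 (10.3% of all genes), and DESeq2 called 1. The MYC interaction was 0.74 (SE 0.22, adjusted p = 0.191), the combination being no lower than either drug alone. It was called without H1975 almonertinib 1 (0.86, adjusted p = 0.0249), with DESeq2 (0.79), with the length and GC trend removed (0.67), with all 24 libraries in one fit (0.73) and without the 4 libraries apart in GC trend (0.92).

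Leaving out all 4 libraries whose GC trend stood apart raised the number of network genes called in H1975 to 5 under almonertinib, 3 under paclitaxel and 2 under the combination. Calls over all genes rose as well, from 241, 79 and 304 genes to the far higher counts given in the section on processing. The rise is therefore not read as particular to the network. That setting was chosen after seeing the data and leaves 2 libraries in 3 of the 4 H1975 groups, and removing the library farthest from its group narrows the spread by its construction. Among all genes called in H1975 under almonertinib, paclitaxel and the combination, 69.3%, 69.6% and 71.7% were higher, against 48.3%, 44.1% and 44.8% with the length and GC trend removed, so the split of directions over all genes in this line depends on that scaling. With the 4 libraries left out MYC was called in all 3 comparisons, with a log2 change of -0.77 under paclitaxel (adjusted p = 0.00062).

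Tests of the difference between lines, over all 24 libraries, called 3 genes for almonertinib (16.6% of all genes), 2 for paclitaxel (17.1%) and 3 for the combination (18%). In each of these comparisons the share of the 9 genes called was above the background, by no more than 1 or 2 genes. The almonertinib fall of MXD1 was deeper in PC9 by 2.21 on the log2 scale (log2 difference -2.21, SE 0.32, adjusted p = 3.46e-05 by edgeR). The rise of MXD4 was larger in PC9 by 0.83 (SE 0.23, adjusted p = 0.0132) under almonertinib and by 1.04 (SE 0.23, adjusted p = 0.00237) under the combination. MXD3 differed in the same direction, by 0.72 (SE 0.23, adjusted p = 0.0353) and 0.69 (SE 0.23, adjusted p = 0.0429), but these calls were fragile. The first was lost without PC9 almonertinib 3 (0.50, adjusted p = 0.11), and also without H1975 almonertinib 2, H1975 control 1 or PC9 control 1 or 2. The second was lost with DESeq2 (adjusted p = 0.051) and without any 1 library of its 4 groups other than H1975 control 3. The combination lowered MYC more in PC9 (log2 difference -0.95, SE 0.19, adjusted p = 0.00104). For MYC the single drugs were not shown to differ between lines, the differences being -0.30 (interval from -0.68 to 0.07) for almonertinib and 0.07 (interval from -0.31 to 0.44) for paclitaxel. Under paclitaxel MXI1 (0.98, SE 0.28, adjusted p = 0.0197) and MGA (1.29, SE 0.36, adjusted p = 0.0179) rose in PC9 beyond their H1975 changes. With the length and GC trend removed the MGA difference was 0.64, still called. Both of those calls were lost without H1975 control 3, H1975 paclitaxel 2 or PC9 control 3.

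The untreated lines differed in 8 of the 9 genes (68.7% of all genes), 1 being higher in PC9 (34.9% of all genes) and 7 lower (33.8% of all genes). PC9 had 6.04-fold more MXD1 (81.4 ± 12.1 against 13.4 ± 4.71 CPM, SD, n = 3; log2 difference 2.60, SE 0.23, adjusted p = 3.55e-10 by edgeR). H1975 had 3.13-fold more MYC (640 ± 82.8 against 205 ± 27.6 CPM; log2 difference -1.65, SE 0.14, adjusted p = 7.91e-11), 2.04-fold more MLX and 1.55-fold more MAX. MXD3, MXD4, MXI1 and MGA were also lower in PC9, by 1.39-fold to 1.62-fold. The MXI1 and MGA differences were lost without H1975 control 3 (log2 differences -0.29 and -0.51) or PC9 control 3 (-0.41 and -0.57), that of MXI1 without PC9 control 1 (-0.46), and that of MXD4 without H1975 control 1 (-0.38, adjusted p = 0.059). With the length and GC trend removed, with or without the replicate block, the log2 differences of MAX, MXD3 and MLX reached -1.16, -1.06 and -1.55, against -0.63, -0.64 and -1.03 as tested above. MNT did not differ by the test (0.22, interval from -0.08 to 0.52).

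Per kilobase of transcript, the order of the 9 genes in controls was led by MYC in both lines, at 86.4 ± 11.7 CPM per kilobase in PC9 and 271 ± 35 in H1975 (SD, n = 3). In PC9 it was followed by MAX (21.7) and MLX (21.3), which lay within their SD of each other, then MXD1 (14.6), MXD4 (12.9), MNT (11.3) and MXD3 (10.6), each below the one before by less than the SD of MXD1 (2.17), and far below by MXI1 (2.64) and MGA (0.811). In H1975 MLX (43.5) and MAX (33.7) came next, then MXD4 (18.3) and MXD3 (16.4), which lay within their SD of each other, MNT (9.66), MXI1 (3.65), MXD1 (2.40) and MGA (1.32). MXD1 thus stood in 4th place in PC9 and in 8th place in H1975.

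The genes whose levels followed each network gene most closely were sought over all 24 libraries, after centring each line, among 9417 genes. The libraries share lines and treatments, so these correlations are descriptions. They still carry each library's length and GC trend and were not taken with that trend removed. MYC was matched best by FOSL1 (Pearson r = 0.952), KCNJ12 (0.944) and SPRY4 (0.930); FOSL1 is an AP-1 subunit and SPRY4 a feedback inhibitor of receptor tyrosine kinase signalling, both known targets of the ERK pathway. MXD1 was matched best by MAP4K4 (0.925), ATF3 (0.924) and KLF4 (0.924), but for ATF3 and KLF4 the match was weaker within H1975 (0.455 and 0.348) than within PC9 (0.988 and 0.991). MXD4 went with GPRIN2 (0.969), IL17RC (0.962) and RAB26 (0.961), MXD3 with RILP (0.947), ORMDL3 (0.943) and ROGDI (0.933), and MXI1 with BBS2 (0.844), IGFBP3 (0.827) and CCDC113 (0.813). Among the network genes, MXD3 and MXD4 correlated at 0.873, MAX and MLX at 0.903, and MXD1 with MXD3 at -0.805. MAX (122 CPM) and MLX (129 CPM) were both highest of their group in H1975 almonertinib 1, the library farthest apart in GC trend. How much of these correlations stems from the trend was not tested.

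Genes that MYC is known to activate were mostly lower in PC9 wherever almonertinib was present. Of 19 tested nucleolar and ribosome-production genes, 13 fell and 3 rose under almonertinib (median log2 change -0.73, against 0.03 over all genes tested), and 16 fell and 0 rose under the combination (median -0.84, against 0.00). Under paclitaxel 9 fell and 4 rose (median -0.13, against -0.01). Of all genes, 27.8% fell and 28.9% rose under almonertinib, 28% and 27% under paclitaxel, and 26% and 24.7% under the combination. NOP56, a core protein of the box C/D particles that modify ribosomal RNA, stood at 196 ± 28.9 CPM in controls (SD, n = 3), and fell by 1.43 under almonertinib (SE 0.10) and by 1.39 under the combination (SE 0.10). NOP16, a nucleolar protein, fell by 1.16 and 0.84 under almonertinib and paclitaxel (SE 0.12 each). BOP1, which matures the large ribosomal subunit, fell by 1.43 under the combination and 0.58 under paclitaxel (SE 0.11 each). NPM1 and GNL3, which encode abundant nucleolar proteins, went the other way under the single drugs: NPM1 rose by 0.72 and 0.69 (SE 0.12 each) and GNL3 by 0.55 and 0.81 (SE 0.11 each) under almonertinib and paclitaxel. NPM1 has near-identical pseudogene copies, so its counts are uncertain.

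Genes of nucleotide and polyamine synthesis were also mostly lower in PC9 with almonertinib. Of 16 tested genes, 13 fell and 0 rose under almonertinib (median log2 change -0.58), 14 fell and 0 rose under the combination (median -0.72), and 6 fell and 3 rose under paclitaxel (median -0.06). CTPS1, which makes CTP, fell by 1.58 and 1.61 under almonertinib and the combination (SE 0.11 each), and TYMS, which makes thymidylate, by 1.01 and 1.26 (SE 0.09 each). ODC1 and SRM, enzymes of polyamine synthesis, led the falls under paclitaxel (log2 changes -0.99, SE 0.11, and -0.71, SE 0.12), where PPAT (0.88, SE 0.24) and PAICS (0.55, SE 0.12) of purine synthesis rose. With the length and GC trend removed, the number of nucleotide and polyamine genes that fell under almonertinib was again 13, and the nucleolar number was 14. Under paclitaxel, where all PC9 libraries were shifted in that trend, the list values are given only with it left in. These lists were chosen with earlier results of the series known. Of all genes, 27.8% were lower and 28.9% higher under almonertinib, 28% and 27% under paclitaxel, and 26% and 24.7% under the combination. The counts of both lists are therefore a description.

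Among 17 other tested MYC targets, 9 fell and 1 rose under almonertinib (27.8% of all genes lower and 28.9% higher), 11 fell and 0 rose under the combination (26% lower and 24.7% higher), and 3 fell and 3 rose under paclitaxel (28% lower and 27% higher). Their called share was near that of all genes under almonertinib (58.8% against 56.7%) and below it under paclitaxel (35.3% against 55%). CDC25A, a phosphatase that drives entry into S phase, fell from 37.3 ± 7.03 CPM in PC9 controls to 8.52 ± 0.775 under almonertinib and 8.58 ± 0.478 under the combination (SD, n = 3; log2 change -2.13 in both, SE 0.14). TERT, the catalytic subunit of telomerase, fell by 2.76 (SE 0.25) and 3.32 (SE 0.26) from a control level of 5.11 ± 0.707 CPM. Under paclitaxel CDC25A (log2 change -0.92, SE 0.13) and TERT (-0.89, SE 0.21) fell, and EIF4E, the cap-binding translation factor, rose (0.50, SE 0.15).

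Genes known to be repressed by MYC with MIZ1 did not rise together. Under almonertinib 4 of 8 rose (28.9% of all genes) and 2 fell (27.8%), and under the combination the counts were again 4 (24.7% of all genes) and 2 (26%). The genes that fell were CDKN1A, the cell cycle inhibitor p21 (log2 change -1.62, SE 0.15, under almonertinib, and -1.57, SE 0.15, under the combination) and GADD45A, a stress-response gene (-2.38, SE 0.11, and -1.63, SE 0.11). CDKN1B, the cell cycle inhibitor p27, rose by 0.39 under almonertinib, 0.67 under paclitaxel and 0.46 under the combination (SE 0.09 each), and CDKN1C by 1.02 (SE 0.22) under the combination. Under paclitaxel 2 rose (27% of all genes) and 2 fell (28%). The falls there were again of CDKN1A (log2 change -1.74, SE 0.15) and GADD45A (-0.51, SE 0.10), and NDRG1 rose (0.84, SE 0.28) beside CDKN1B.

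In H1975, where few genes were called at all, the same lists gave few calls. Of the 19 nucleolar genes, RRP9 and BOP1 fell under the combination (log2 changes -0.87, SE 0.21, and -0.88, SE 0.22; 0.697% of all genes lower), and none was called under the single drugs. Of the nucleotide and polyamine list, ODC1 fell under almonertinib (-0.85, SE 0.17; 0.599% of all genes lower) and no other gene was called. The nucleolar medians were -0.28 under almonertinib, -0.21 under paclitaxel and -0.30 under the combination, against 0.02, -0.03 and -0.04 over all genes. ID2, a MYC target and inhibitor of basic helix-loop-helix factors, rose under all 3 H1975 treatments (log2 changes 1.65, 1.36 and 1.73, SE 0.17 each), from 6.35 ± 0.577 CPM in controls to 20.1 ± 1.41, 16.4 ± 0.749 and 21.3 ± 2.77 CPM (SD, n = 3).

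**Figure D4:**
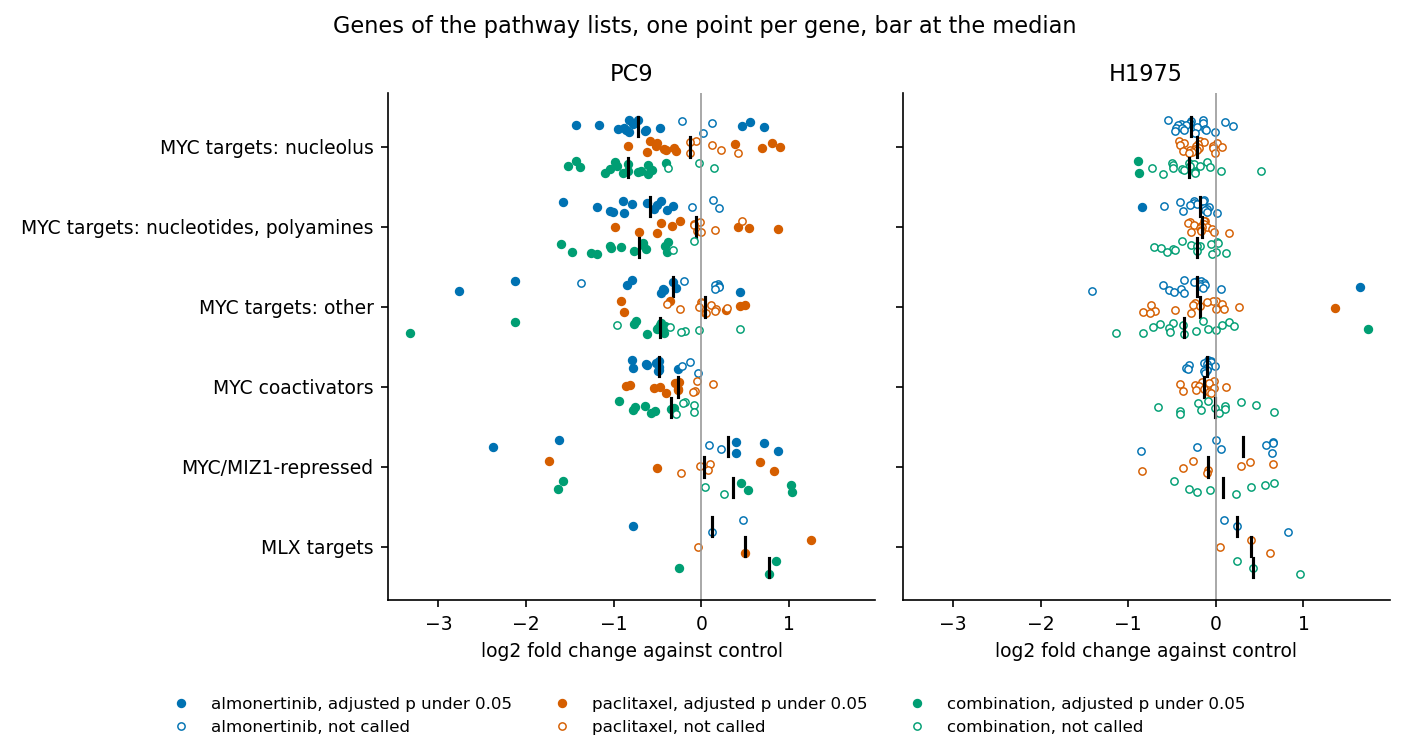
Log2 fold change against control of each tested gene of 6 pathway lists in PC9 (left) and H1975 (right), coloured by treatment; filled points passed an adjusted p of 0.05 in edgeR and black bars mark the median of a list. In PC9 the medians of the 3 MYC target lists lie left of 0 under almonertinib and the combination (nucleolar medians -0.73 and -0.84), with single genes to the right, and in H1975 few points are filled.

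Of the wider network, MYCL, MLXIP and MLXIPL were tested. MYCL, the lung cancer paralogue of MYC, rose in PC9 under almonertinib (log2 change 1.73, SE 0.27), paclitaxel (1.48, SE 0.27) and the combination (1.98, SE 0.26), from 1.06 ± 0.165 CPM in controls to 3.47 ± 0.928, 2.97 ± 0.668 and 4.16 ± 0.559 CPM (SD, n = 3). Its level stayed far below that of MYC. MLXIP, the glucose-sensing partner of MLX, rose under almonertinib (0.35, SE 0.08) and the combination (0.50, SE 0.08). Of 3 tested genes known to be driven by MLX dimers, TXNIP and ARRDC4, which restrain glucose uptake, rose under paclitaxel (0.50, SE 0.15, and 1.26, SE 0.26) and the combination (0.78, SE 0.15, and 0.85, SE 0.27), and KLF10 fell under almonertinib (-0.78, SE 0.09) and the combination (-0.26, SE 0.09). Of all genes, 27% rose under paclitaxel, 24.7% rose and 26% fell under the combination, and 27.8% fell under almonertinib.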

How the data were processed

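RNA of 24 libraries was sequenced with a SMART-RNAseq kit after TRIzol extraction, per the labels' protocols. The authors deposited 1 table of raw read counts per gene. Reads were aligned with HISAT2 2.2.1 to GRCh38 and counted with HTSeq, per the submitters' processing notes; the HTSeq version, annotation and strand setting are not given in the sources used here. No column of the table was left unmatched to a sample (0 unused per-sample columns), and no 2 libraries of a group were alike enough to be 1 library deposited in duplicate.

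Counts were tested with edgeR 4.0.16 in R 4.3.3 (filterByExpr, TMM factors, quasi-likelihood test, 1 term per group, two-sided). The 12 PC9 libraries (12796 genes) and the 12 H1975 libraries (12345 genes) were fitted separately, and all 24 (13380 genes) for comparisons between lines. P-values were adjusted by Benjamini-Hochberg over all genes tested, with 0.05 as the threshold. The SE was taken from the log2 fold change and the F statistic, and intervals are ± 2 SE. The script was tested on simulated data with known changes.

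Transcript length and GC content came from the longest basic protein-coding transcript in GENCODE v29, for 19557 of 19702 genes. Promoter windows came from RefSeq (GRCh38.p14). Alternatives were RLE factors, no filter, DESeq2 1.42.0, a strict filter that asked for 1 CPM in at least 3 libraries with an average of 5 CPM or more, the repeat number as a block, all 24 libraries in one fit, only the 2 groups compared, removal of each library's trend on length and GC (splines with 5 degrees of freedom), and leaving out each library. Added after seeing the data were omission of the 4 libraries apart in GC trend, and the trend removal with the block. The genes and the 10 lists were chosen with earlier results of these data known. Genes of a list are named where they had the smallest p in a comparison, no more than 2 in either direction.

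The repeat numbers were checked for pairing by the correlation of the libraries' deviations from their group means. All 3 correlations passed 0.1 only for PC9 almonertinib with control (0.119, 0.106 and 0.394) and H1975 combination with control (0.110, 0.169 and 0.345). Any pairing there is read from the data and is not given by the labels.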

Additional observations from a re-analysis of the deposited data

Results flagged for a closer look

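A test of the difference between PC9 and H1975 passed the threshold for 8 gene and treatment pairs (edgeR over all 24 libraries, adjusted over all genes tested; positive values mean a higher change in PC9). Under almonertinib these were MXD1 at -2.21 (SE 0.32, adjusted p = 3.46e-05), MXD4 at 0.83 (SE 0.23, adjusted p = 0.0132) and MXD3 at 0.72 (SE 0.23, adjusted p = 0.0353). MXD1 started 6.04-fold higher in PC9 controls than in H1975 controls. Under paclitaxel they were MGA at 1.29 (SE 0.36, adjusted p = 0.0179) and MXI1 at 0.98 (SE 0.28, adjusted p = 0.0197). Under the combination they were MXD4 at 1.04 (SE 0.23, adjusted p = 0.00237), MYC at -0.95 (SE 0.19, adjusted p = 0.00104) and MXD3 at 0.69 (SE 0.23, adjusted p = 0.0429). The lines received different doses of the single drugs, so line and dose cannot be told apart.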

How the results depend on the processing

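Across all alternatives, 2271 values of the 9 genes' log2 changes kept their direction and their side of the threshold, 150 lost a call, 67 gained one and 5 reversed. In PC9 under almonertinib and under the combination, the calls of MYC, MXD1, MXD3, MXD4 and MXI1 held in every alternative run. The 5 reversals came with the length and GC trend removed: MAX in PC9 under almonertinib (0.13, and 0.129 with the replicate block), MLX there (0.045, and 0.0475 with the block) and the line difference of MAX under almonertinib (0.287). With the replicate block no network gene was called in H1975 under almonertinib (0) or the combination (0); elsewhere in the treatment comparisons the block changed 2 calls, adding MGA in PC9 combination against control and MXD1 in PC9 combination against paclitaxel, and between the control groups it lost MXI1 (-0.51) and MGA (-0.45).

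The number of the 9 genes called moved as follows. With all 24 libraries in one fit it was 5 in PC9 under almonertinib, 2 for the PC9 combination against almonertinib and 2 against paclitaxel, 4 for the PC9 interaction, 1 in H1975 under paclitaxel and 2 for the H1975 interaction. With only the 2 groups compared it was 5 in PC9 and 0 in H1975 under almonertinib. With the trend removed it was 4 for the PC9 interaction, 1 in H1975 under paclitaxel and 3 for the H1975 interaction, and the latter 2 were again 1 and 3 with the block added. RLE factors gave 1 in H1975 under almonertinib and 0 under the combination, where no filter also gave 0. The strict filter and DESeq2 each gave 1 in H1975 under paclitaxel, and DESeq2 gave 1 for the H1975 interaction. Without the 4 libraries apart in GC trend, H1975 gave 5 under almonertinib, 3 under paclitaxel, 2 under the combination, 3 and 4 for the combination against almonertinib and paclitaxel, and 6 for the interaction.

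Leaving out each library gave 5 to 9 calls in PC9 under almonertinib (5 without almonertinib 1 or control 3), 2 to 4 for the PC9 combination against paclitaxel, 0 to 2 in H1975 under almonertinib, 0 to 1 under the combination, 0 to 1 for the H1975 combination against paclitaxel (1 without paclitaxel 1), 0 to 1 for the H1975 interaction (1 without almonertinib 1) and 0 to 2 for the paclitaxel line difference (0 without H1975 control 3, H1975 paclitaxel 2 or PC9 control 3).

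Counts over all genes moved too. The PC9 combination against almonertinib called 2570 genes, 918 with all 24 libraries, 1318 with the 2 groups only and 4184 without almonertinib 3, and against paclitaxel 5643 fell to 3734 with all 24. In H1975 almonertinib called 241 genes (46 with the 2 groups only, 5630 without the libraries apart), paclitaxel 79 (33 without control 1, 1094), the combination 304 (64 without control 1, 4328), the combination against almonertinib 0 (4255) and against paclitaxel 0 (4087), and the interaction 83 (29 without paclitaxel 3, 4077). Line differences of 2216, 2290 and 2402 genes became 4031, 4798 and 5187 without those libraries, and 3898, 3491 and 4078 with the trend removed. With the trend removed the share of calls higher in PC9 went from 33.4% to 50.7% for almonertinib and from 57.9% to 46.7% for paclitaxel (45.9% with RLE factors, 47% with DESeq2), and that of the H1975 interaction from 38.6% to 61.2% (68.7% with DESeq2). The median change of all genes shifted by over 0.1 with DESeq2 for the paclitaxel line difference (-0.104) and with the trend removed between the controls (-0.114). Causes of these changes were not tested.

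Limits: 3 libraries a group of unstated origin, 1 line per genotype, unlike doses between lines, unstated doses in the combination, RNA only, and an unstated strand setting for genes that overlap others.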

Other observations

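Of 13 tested coactivators through which MYC acts on chromatin, 10 fell and 0 rose in PC9 under almonertinib (median log2 change -0.48; 27.8% of all genes lower), 9 fell and 0 rose under paclitaxel (median -0.27; 28% lower), and 8 fell and 0 rose under the combination (median -0.34; 26% lower). The others, 3, 4 and 5 in that order, were not called. RUVBL1, an ATPase of several remodelling complexes, fell by 0.77 under both almonertinib and the combination, and ACTL6A, an actin-related subunit of the same complexes, by 0.78 and 0.94. Under paclitaxel HCFC1, a cell cycle cofactor, fell by 0.82 and PAF1, an elongation factor, by 0.54. The paclitaxel values of this and the next lists still carry the length and GC trend of those libraries. With all 24 libraries in one fit, 4 fell under paclitaxel.

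Genes that set the stability of MYC protein were mixed in PC9. Of 12 tested, 2 rose and 4 fell under almonertinib, 5 rose and 3 fell under paclitaxel, and 2 rose and 3 fell under the combination. The called shares of 50%, 66.7% and 41.7% lie near the 56.7%, 55% and 50.7% of all genes. USP28, a deubiquitinase known to stabilise MYC, rose by 0.88, 0.94 and 0.71 on the log2 scale under the 3 treatments in that order, while USP36, a nucleolar deubiquitinase, fell by 1.29, 0.63 and 1.14 and AURKA, a mitotic kinase that binds MYCN and MYC, by 0.67, 0.81 and 0.95. CIP2A, which inhibits the phosphatase that marks MYC for decay, rose by 1.00 under paclitaxel.

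Of 13 genes of the SIN3-HDAC corepressor that MXD proteins recruit, 3 rose and 4 fell under almonertinib, 6 rose and 1 fell under paclitaxel, and 1 rose and 2 fell under the combination. Their called shares of 53.8%, 53.8% and 23.1% were at or below those of all genes. ARID4B (1.73) and HDAC2 (0.81) led the rises under almonertinib, and SIN3B (-0.46) and ING1 (-0.36) the falls. Of 10 genes of the PRC1.6 complex that MGA belongs to, 1 rose and 2 fell under almonertinib, 3 rose and 2 fell under paclitaxel, and 1 rose and 4 fell under the combination (30%, 50% and 50% called, again at or below all genes). CBX3 rose by 0.89 under almonertinib, with near-identical copies elsewhere that make its counts uncertain, and TFDP1 (-0.69) and WDR5 (-0.49) fell. None of the genes of these 4 lists was called in H1975 against control.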
